A study of Mus musculus with 2 samples.

Results

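Mir7-1, Mir7-2 and Mir7b, of the miR-7 family, and Mir375 were described in small-RNA sequencing of the embryonic midbrain. They were found by symbol among the 1973 microRNA genes of the deposited count tables, and all 4 were present. Mir7j, with 122 counts in replicate 1 and 111 in replicate 2, was not among the members and enters no Mir7 sum or share. The tissue came from B6NCrl embryos at day 12.5, with males and females mixed. Replicate 1 pooled 120 embryos and replicate 2 pooled 88, and the small RNAs sequenced were shorter than 30 nucleotides. No allele, treatment or second tissue was part of the series, so the comparisons are between the genes and between the 2 libraries. The labels give both pools 1 donor identifier and number them as biological replicates.

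MicroRNAs are cut from hairpin precursors, and either arm of a hairpin can be loaded into Argonaute, where bases 2 to 8, the seed, choose the messenger RNAs to be repressed. The miR-7 family is deeply conserved and is known from neurosecretory cells of the brain, the pituitary and the endocrine pancreas. Its targets include alpha-synuclein, a protein of dopamine neurons, and the circular RNA Cdr1as carries many sites for it. Mir375 is known from pancreatic islets, where it limits insulin secretion, and from the pituitary and the inner ear.

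The mature sequences, from RefSeq on GRCm38.p6, are shown first because they decide which reads can be told apart. Capitals mark the seed, and each line runs 5′ to 3′.
miR-7a-5p, from Mir7-1 and Mir7-2: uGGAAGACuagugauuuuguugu
miR-7b-5p, from Mir7b: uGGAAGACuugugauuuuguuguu
miR-7a-1-3p, from Mir7-1: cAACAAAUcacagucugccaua
miR-7a-2-3p, from Mir7-2: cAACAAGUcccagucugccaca
miR-7b-3p, from Mir7b: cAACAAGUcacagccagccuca
miR-375-5p, from Mir375: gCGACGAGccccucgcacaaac
The other arm of Mir375 is miR-375-3p.

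The 5p arms of all 3 Mir7 genes had the seed GGAAGAC, which no other mature sequence in the RefSeq table of 1738 entries carried. Over the 23 bases compared, miR-7a-5p and miR-7b-5p differed by 1 substitution, A10U, with positions counted from the 5′ end of miR-7a-5p, outside the seed. The 3p arms differed more. miR-7a-1-3p and miR-7a-2-3p had 3 substitutions over 22 bases (A7G, A10C and U21C, counted from the 5′ end of miR-7a-1-3p). The first of them lies in the seed, so miR-7a-2-3p and miR-7b-3p share the seed AACAAGU and miR-7a-1-3p has AACAAAU. miR-7a-2-3p and miR-7b-3p differed at 4 positions, all outside the seed.

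The hairpins are printed with the listed arms in capitals, to show the bases around the shared arm.
Mir7-1: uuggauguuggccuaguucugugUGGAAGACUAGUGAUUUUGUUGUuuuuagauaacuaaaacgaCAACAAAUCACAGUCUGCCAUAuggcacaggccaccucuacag
Mir7-2: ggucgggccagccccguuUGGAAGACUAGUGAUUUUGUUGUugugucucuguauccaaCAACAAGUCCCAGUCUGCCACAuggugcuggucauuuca
Mir7b: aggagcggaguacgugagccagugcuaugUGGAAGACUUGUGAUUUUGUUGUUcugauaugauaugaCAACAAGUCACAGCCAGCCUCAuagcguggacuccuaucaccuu
Mir375: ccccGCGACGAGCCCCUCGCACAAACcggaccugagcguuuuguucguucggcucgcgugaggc
Mir7-1 and Mir7-2 shared an unbroken run of 24 bases, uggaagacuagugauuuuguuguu, which holds the whole of miR-7a-5p and 1 base more. A read that lies within these bases has the same sequence from either gene. Mir7b shared at most 14 bases in a row with either of them, and Mir375 at most 7 with any Mir7 gene. In pairwise alignments the Mir7 hairpins were 64.9% to 68.8% identical, and Mir375 was 34.8% to 44.4% identical to them. The Mir375 hairpin was the shortest, at 64 nucleotides against 97 to 111, and the richest in G and C, at 67.2% against 41.7% to 50.5%. Its predicted folding energy was -26.8 kcal/mol, against -46.8 for Mir7-1, -40.5 for Mir7-2 and -35.0 for Mir7b.

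The loci differ in kind. On mm10, Mir7-1 (ENSMUSG00000065434) lies at chr13:58392779-58392886 on the minus strand, inside Hnrnpk, a ubiquitous gene for an RNA-binding protein transcribed in the same direction. In all 12 Hnrnpk transcripts that span it, the hairpin sat in the intron before the final exon, and it overlapped an exon in none of the 34 annotated transcripts. Mir7-2 (ENSMUSG00000065609), at chr7:78888277-78888373 on the plus strand, was intergenic, with Aen 7.48 kb downstream on the same strand and the long non-coding gene Gm44730 29.8 kb upstream on the other. Mir7b (ENSMUSG00000065491), at chr17:56242988-56243098 on the plus strand, was intergenic but began 0.183 kb after the end of the long non-coding gene AC026385.1 on the same strand. Mir375 (ENSMUSG00000065616), at chr1:74900658-74900721 on the minus strand, was intergenic, 1.35 kb past the end of Cfap65 and 7.51 kb before Cryba2, a crystallin gene, both on the same strand. No other microRNA gene of the count tables lay within 10 kb of any of the 4.

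**Figure D1:**
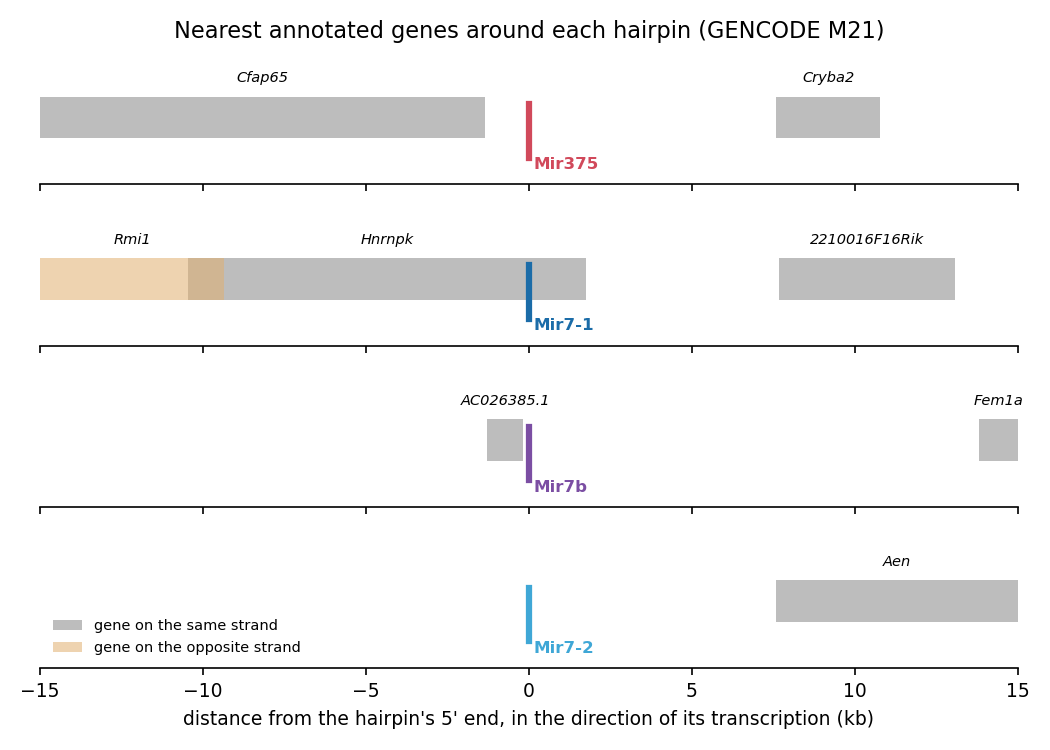
Distance in kb from the 5′ end of each hairpin, in the direction of its transcription, to the nearest annotated gene on each side and to any gene that contains it. Grey bars are genes on the same strand and orange bars genes on the opposite strand, drawn to 15 kb. Mir7-1 alone lies inside a gene, Hnrnpk, and Mir7b begins 0.183 kb after AC026385.1.

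The libraries held 10743770 and 6717347 reads, of which 4629302 and 2805487 were assigned to a microRNA gene on its own strand. Levels are given as counts per 1000000 of these assigned counts (CPM), and 3 counts, the limit that a count of 0 allows, stood at 0.648 CPM in replicate 1 and 1.07 CPM in replicate 2. Of the 1973 genes, 380 had at least 10 counts in both libraries and were quantified, and the 4 described here were among them. Reads that aligned to several places stood in a row of their own and entered no gene's count. They made up 33.4% of reads in each library, or 3589504 and 2242911 reads, and the files do not say where they aligned. The counts of Mir7-1 and Mir7-2 therefore hold no read that was placed at both genes, and how much miR-7a-5p they leave out is not known. The files also do not say which arm a counted read came from. The 11 genes of the neuronal list found by symbol all had counts in both libraries, and Mir9-1, also listed, was not found. Mir137 and Mir153 were the highest of the 11, at 3894 ± 467.3 and 3399 ± 159 CPM (SD, n = 2). Only microRNAs were counted, so no protein marker of endocrine cells was measured, and the label neuroendocrine was not checked against one.

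The 4 genes were of middle rank. Together they held 0.169% of assigned counts in replicate 1 and 0.167% in replicate 2, that is 1692 and 1669 CPM. The 3 Mir7 genes summed to 1250 CPM in replicate 1 (95% Wilson interval 1219 to 1283) and 911 CPM in replicate 2 (877 to 947), a mean of 1081 ± 239.6 CPM (SD, n = 2). Mir7-1 and Mir7-2, which can both make miR-7a-5p, summed to 724 and 645 CPM. The near-constant total of the 4 genes thus came from a lower Mir7 sum and a higher Mir375 level in replicate 2.

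Mir7-1 had 2405 counts, or 520 CPM (interval 499 to 541), in replicate 1 and 1171 counts, or 417 CPM (394 to 442), in replicate 2. Its mean was 468.5 ± 72.2 CPM (SD, n = 2), rank 138 of the 380 quantified genes. It was the second of the 4 genes in mean level, and the intervals of its libraries did not overlap.

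Mir7b had 2438 counts, or 527 CPM (interval 506 to 548), in replicate 1 and 748 counts, or 267 CPM (248 to 286), in replicate 2. Its mean was 396.6 ± 183.9 CPM, rank 147. It stood level with Mir7-1 in replicate 1, where their intervals overlap, and well under it in replicate 2. By the size of its log2 ratio between the libraries it was rank 16 of the 380 genes.

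Mir7-2 had 945 counts, or 204 CPM (interval 192 to 218), in replicate 1 and 638 counts, or 227 CPM (210 to 246), in replicate 2. Its mean was 215.8 ± 16.5 CPM, rank 176. It was the lowest of the 4 genes in both libraries, and its intervals overlapped between them. In replicate 2 its interval also overlapped that of Mir7b.

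Mir375 had 2043 counts, or 441 CPM (interval 423 to 461), in replicate 1 and 2126 counts, or 758 CPM (726 to 791), in replicate 2. Its mean was 599.6 ± 223.8 CPM, rank 126. It was the highest of the 4 genes in replicate 2 but lay under Mir7b and Mir7-1 in replicate 1. With 2 libraries, the SDs of Mir375, Mir7-1 and Mir7b are wide enough that their means cannot be put in an order.

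**Figure D2:**
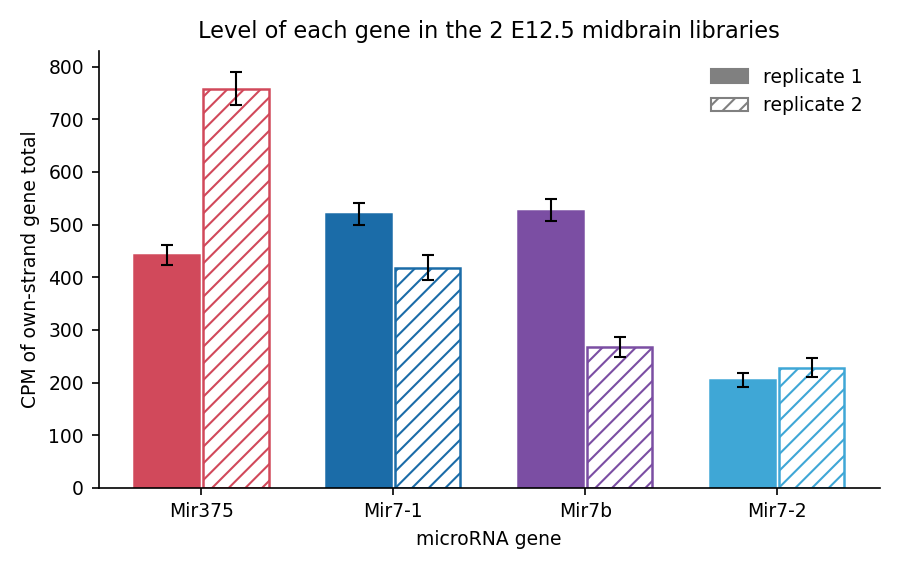
CPM of the own-strand gene total for each gene in replicate 1 (filled) and replicate 2 (hatched), with 95% Wilson intervals, which cover counting error only. Mir375 went from 441 CPM in replicate 1 to 758 CPM in replicate 2 and Mir7b went from 527 to 267 CPM, while Mir7-2 stayed lowest in both.

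None of the 4 genes had a read on the opposite strand in either library, so counting either strand left their counts as they were. On level alone, the genes next to them in mean CPM were Mir210 and Mir204 above Mir375 and Mir669o and Mir494 below it. Mir7-1 stood between Mir135a-1 and Mir1251 above and Mir429 and Mir217 below. Mir7b stood between Mirlet7f-2 and Mir3074-1 above and Mir148a and Mir101a below, and Mir7-2 between Mir128-1 and Mir874 above and Mir877 and Mir200c below.

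The copies of the Mir7 family were then compared by locus. In replicate 1, Mir7b gave 42.1% of the 5788 Mir7 counts (interval 40.9 to 43.4%), Mir7-1 41.6% (40.3 to 42.8%) and Mir7-2 16.3% (15.4 to 17.3%). In replicate 2, Mir7-1 gave 45.8% of 2557 counts (43.9 to 47.7%), Mir7b 29.3% (27.5 to 31.0%) and Mir7-2 25.0% (23.3 to 26.7%). In these counts, Mir7-1 and Mir7b were thus equal within counting error in the first library, and Mir7-1 was ahead in the second. Over both, the shares were 43.7% ± 3.0 for Mir7-1, 35.7% ± 9.10 for Mir7b and 20.6% ± 6.10 for Mir7-2 (SD, n = 2). Reads placed at both Mir7-1 and Mir7-2 are left out, while miR-7b-5p matched only 1 hairpin of the RefSeq table. Shares and ratios that involve Mir7-1 or Mir7-2 therefore do not measure the whole output of each copy.

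**Figure D3:**
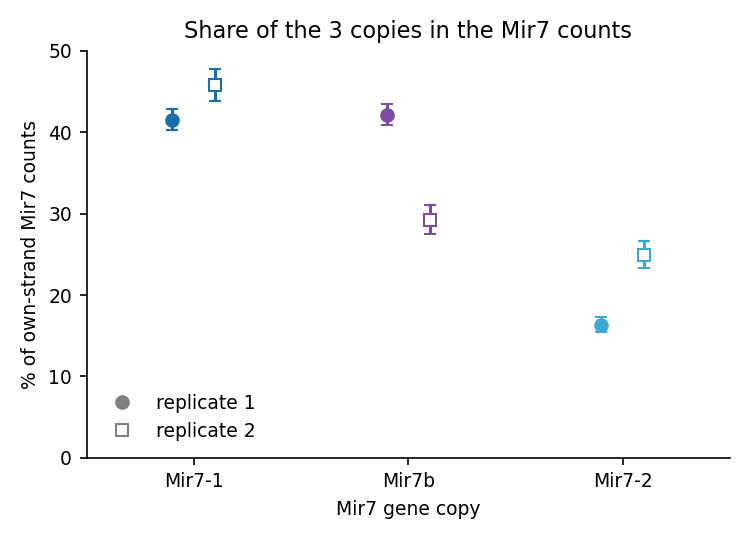
Percent of the summed own-strand counts of Mir7-1, Mir7-2 and Mir7b that came from each gene copy. Replicate 1 is shown as filled circles and replicate 2 as open squares, with 95% Wilson intervals. Mir7b went from 42.1% to 29.3% and Mir7-2 from 16.3% to 25.0%. Reads placed at both Mir7-1 and Mir7-2 are not counted.

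The ratio of Mir7-1, the copy inside Hnrnpk, to Mir7-2, the intergenic copy, was 2.54 in replicate 1 (95% exact interval 2.36 to 2.75) and 1.84 in replicate 2 (1.67 to 2.02). Its log2 value had a mean of 1.11 ± 0.33 (SD, n = 2), so Mir7-1 had the higher count of the copies in both libraries. Neither count holds reads placed at both genes, so the copies are not ranked here by the miR-7a-5p they make. Per base of hairpin the mean was 0.96. Whole small RNAs are sequenced, so a read does not depend on the hairpin's length, and both scales are given. Of the 21 pairs of quantified genes that share a whole mature arm in the RefSeq table, 15 had a mean log2 ratio at least as far from 0 as that of Mir7-1 and Mir7-2, this pair counted. The median over these pairs was 1.32 and the range 0.23 to 6.77, so the unevenness of the miR-7a copies lay in the lower part. For every such pair, reads placed at both genes are left out, but the loss need not be alike. Mir199a-1 and Mir199a-2 share 2 arms, for example, and Mir7-1 and Mir7-2 share 1. The pairs share genes and libraries, and these values are a description.

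Mir7b over Mir7-2 was 2.58 in replicate 1 (2.39 to 2.78) and 1.17 in replicate 2 (1.05 to 1.31). Mir7-1 over Mir7b was 0.986 in replicate 1 (0.932 to 1.04) and 1.57 in replicate 2 (1.43 to 1.72). The position of Mir7b between the other copies therefore depended on the library.

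Mir375 was compared with each Mir7 gene in the same way. Over Mir7-2 it was 2.16 in replicate 1 (2.00 to 2.34) and 3.33 in replicate 2 (3.05 to 3.65), the higher in both. Over Mir7-1 it was 0.849 (0.800 to 0.901) and 1.82 (1.69 to 1.95), and over Mir7b 0.838 (0.790 to 0.889) and 2.84 (2.61 to 3.09). Mir375 was thus below Mir7-1 and Mir7b in replicate 1 and above both in replicate 2. Per base of hairpin, which favours the short Mir375, its mean log2 ratio to Mir7-1 was 1.07 in place of 0.31, to Mir7b 1.42 in place of 0.63 and to Mir7-2 2.02 in place of 1.42.

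All 6 pair ratios changed between the libraries by more than counting noise, which needs no library total. By a two-sided Fisher's exact test on the counts of each pair, with Benjamini-Hochberg adjustment over the 6 pairs, the adjusted p ran from 1.14e-129 for Mir375 over Mir7b to 2.08e-07 for Mir7-1 over Mir7-2. The largest change was that of Mir375 over Mir7b, 3.39-fold (log2 change 1.76 ± 0.08, counting SE). The smallest was the 1.39-fold change of Mir7-1 over Mir7-2 (log2 change -0.47 ± 0.09). Over the 21 pairs that share an arm, the median size of this change was 0.32, and in 6 of them, this pair counted, it was at least as large as for Mir7-1 and Mir7-2. A test on 2 libraries compares those libraries and no condition. Reads can be PCR copies of 1 molecule, which these tests do not take into account.

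Each gene was also set against all assigned counts. Of the 380 quantified genes, 54.2% differed between the libraries by a two-sided Fisher's exact test at an adjusted p under 0.05 (Benjamini-Hochberg over the 380), 27.1% higher in replicate 2 and 27.1% lower. Of the 4 genes described here, 1 was called higher, 2 were called lower and 1 was not called, against this background. A difference of at least 1.5-fold as well was found for 13.9% of genes, Mir375 and Mir7b among them. The median log2 ratio over the 380 genes was 0.04.

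Mir7b, at 527 and 267 CPM, was 1.98-fold lower in replicate 2 (log2 ratio -0.98 ± 0.06, counting SE, adjusted p = 3.72e-65 by Fisher's exact test). Of the 380 genes, 8, Mir7b included, had a log2 ratio this low or lower. Mir449a, Mir204, Mir1298, Mir448 and Mir1264, described with the marker genes, were 5 of them, and Mir103-1 and Gm23935 were the others. Mir7-1, at 520 and 417 CPM, was 1.24-fold lower (log2 ratio -0.32 ± 0.05, adjusted p = 1.79e-09 by the same exact test), and 58 genes had a ratio as low or lower. The intergenic copy Mir7-2, at 204 and 227 CPM, had a log2 ratio of 0.16 ± 0.07 and was not called (adjusted p = 0.064 by the exact test). Set against counting error only, the counts of the 3 copies thus did not move as a unit between the pools.

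Mir375, at 441 and 758 CPM, went the other way and was 1.72-fold higher in replicate 2 (log2 ratio 0.78 ± 0.04, adjusted p = 1.03e-66 by Fisher's exact test). A ratio this high or higher was found for 13 of the 380 genes. In bulk tissue, a pool with more cells of a type and a pool with more of the RNA in each cell cannot be told apart.

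These calls set the libraries against counting noise only. With the spread between replicates taken into account, by edgeR's exact test with the common dispersion of these same 2 libraries (a biological coefficient of variation of 20.4%), none of the 4 was called. The adjusted p was 0.766 for Mir7b and 1 for the other 3 genes, and 17 of the 380 genes had an unadjusted p under 0.05. The 4 genes it called were Mir449a, Mir204 and Mir1298, lower in replicate 2, and Mir122, higher. The differences of Mir7b and Mir375 thus passed the test against counting error and did not pass the one that allows for spread between pools. That spread was estimated from the same differences it was set against. The edgeR result is therefore no independent test of them.

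**Figure D4:**
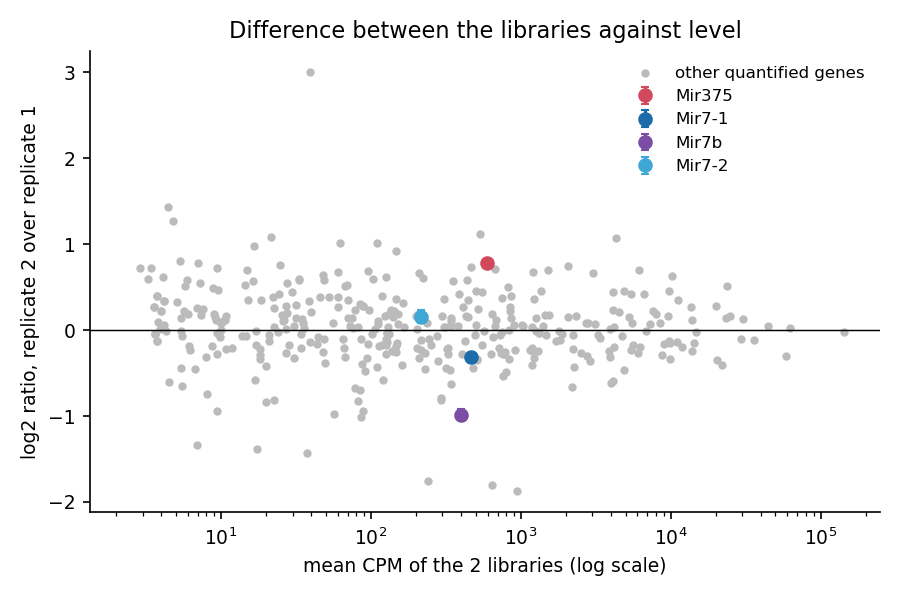
Log2 ratio of replicate 2 over replicate 1 against mean CPM (log axis) for the 380 quantified genes, with the 4 described genes in colour and their counting SE as bars. Mir7b lies near the lower edge at -0.98 and Mir375 near the upper edge at 0.78, with Mir7-1 at -0.32 and Mir7-2 at 0.16 between them.

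The genes with the log2 ratio closest to each member were taken from the 269 others with at least 100 counts in both libraries. With 2 libraries this likeness is a single difference, and many genes are close by it. For Mir375 they were Mirlet7d (0.75), Mir429 of the epithelial Mir200 family (0.74) and Mir455 (0.71). For Mir7b they were Mir181b-1 (-0.97), Gm23935 (-1.01) and Mir6236 (-0.94), all at lower levels than Mir7b, between 56.5 and 89.0 CPM. For Mir7-1 they were Mir551b, Mir301 and Mir134, each within 0.01 of it, and for Mir7-2 Mir298, Mir145a and Mir760, likewise within 0.01.

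Other microRNAs known from endocrine or sensory cells were given from a fixed list of 6, of which 5 were quantified. Mir182, Mir183 and Mir96, of the sensory-organ cluster, stood at 2245 ± 56.2, 1508 ± 507 and 547 ± 118.5 CPM (SD, n = 2). Mir183 and Mir96 were higher in replicate 2 with log2 ratios of 0.70 and 0.45, and Mir132, a microRNA induced by neuronal activity, was also called higher at 0.18. Mir182 was called lower at -0.05. Mir212, the partner of Mir132, was not called at -0.13 ± 0.24, and Mir184, another islet microRNA, had only 7 and 3 counts. Thus 4 of 5 were called, beside 54.2% of all genes, and the list's median was 0.18, beside 0.04.

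In the neuronal list, 2 of 9 quantified genes were called higher in replicate 2, 3 lower and 4 not, with a median of -0.01. That 5 of 9 were called is close to the 54.2% of all genes and is no result about this list. The 3 called lower were Mir137 (-0.25), Mir153 (-0.10) and Mir9-3 (-0.36), and the 2 called higher were Mir128-1 (0.61) and Mir128-2 (0.68). Mir7b, at -0.98, lay below every quantified gene of this list. Mir124a-1 and Mir9-2 were on the list but not quantified, so their ratios were not compared. Mir124a-1 had 28 counts in replicate 1 and 3 in replicate 2, and Mir9-2 had 22 and 8.

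In the epithelial, exocrine pancreas, mesenchymal and endothelial lists, genes were called higher in replicate 2, as Mir375 was, more often than lower. This stands beside 27.1% of all genes called in each direction. The erythroid list, given further on, had 0 genes called higher and 1 called lower. Of the 7 epithelial microRNAs, which placodes and the pituitary anlage also express, 6 were called higher in replicate 2 and Mir141 was not, with a median log2 ratio of 0.60, and their summed level was 2764 and 3549 CPM. The most abundant of them, Mir203, Mir205 and Mir429, had ratios of 0.18, 0.37 and 0.74, and Mir203 and Mir205 had the smallest of the list. The exocrine pancreas markers Mir217 (444 ± 75.0 CPM) and Mir216b (136.6 ± 16.0 CPM) were called higher at 0.35 and 0.24, while Mir216a (76.0 ± 0.88 CPM) was not called at 0.02, and the list summed to 592 and 722 CPM. Of the 6 mesenchymal genes, 5 were called higher and Mir145a was not (median 0.52, sums of 11618 and 17965 CPM). The most abundant of them were Mir143, Mir214 and Mir199b (0.45, 1.07 and 0.58), and the highest ratio was that of Mir199a-1, 1.43 ± 0.55 on 11 and 18 counts. Endothelial Mir126a was higher at 0.16. With the edgeR exact test, none of the genes of these lists was called. Outside the lists, and named after their values were seen, Mir122 of the liver (8.64 and 69.5 CPM, log2 ratio 3.01 ± 0.25) and Mir483, from an intron of Igf2 (335 and 728 CPM, 1.12 ± 0.05), differed more than Mir375. So did Mir10a and Mir10b of the Hox clusters, which mark more posterior tissue (0.93 and 1.02), while Mir196b, also of a Hox cluster, was at 0.59. Of these 5 genes, all called higher by Fisher's exact test, Mir122 was also called by edgeR. The part of other tissue in the Mir375 difference was not tested.

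Several genes known from the choroid plexus or from ciliated cells were lower in replicate 2, as Mir7b was, and by more. They were in no list and are named after their values were seen. Mir449a, of multiciliated cells, was at 1492 and 406 CPM (log2 ratio -1.88 ± 0.05), and Mir204, abundant in the choroid plexus, at 995 and 286 CPM (-1.80 ± 0.06). Mir1298, Mir448 and Mir1264, from introns of Htr2c, a serotonin receptor gene of the choroid plexus, had ratios of -1.76, -1.43 and -1.38. All 5 were called lower by Fisher's exact test, and Mir449a, Mir204 and Mir1298 by edgeR too. Related genes did not all fall. Of the Mir34 genes, the relatives of Mir449a, Mir34a was called lower (-0.68), while Mir34b (0.11) and Mir34c (-0.05) were not called. Mir211, a relative of Mir204, was not called at 0.11 on 46 and 30 counts. The erythroid marker Mir451a was also lower, at 373 and 212 CPM (log2 ratio -0.81 ± 0.07), while Mir144, from the same cluster, was not called at 0.20 ± 0.21. The 2 genes summed to 399 and 242 CPM. Mir486, also erythroid but in no list, was called higher by Fisher's exact test, at 1.08 ± 0.24 on 64 and 82 counts. The part of any of these cells in the Mir7b difference was not tested. No marker-list gene that was found by symbol was at 0 in both libraries.

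**Figure D5:**
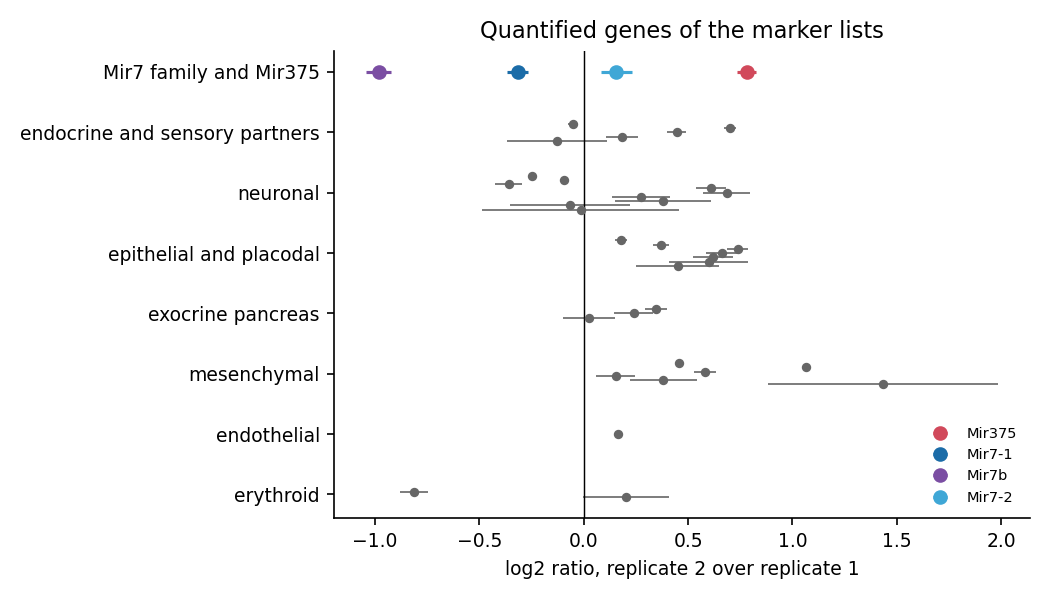
Log2 ratio of replicate 2 over replicate 1 for the described genes (colour) and for each quantified gene of the marker lists (grey), with counting SE as bars. The epithelial genes all lie above 0, as Mir375 does at 0.78, and Mir7b at -0.98 lies left of every quantified gene of the lists.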

How the data were processed

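Small-RNA libraries from 2 pools of E12.5 midbrain were analysed. The authors deposited raw, unnormalized counts per gene, 1 file for each library. The assembly was mm10 and the annotation M4, per the read-me texts deposited with them. The sources used here name no aligner or counter. Rows that name no gene held 56.9% and 58.2% of reads and stayed out of library totals and tests. The own-strand column was used, since it held 97.6% and 97.5% of the reads assigned on either strand.

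Symbols and positions came from GENCODE M21 on GRCm38, which matched 1894 of 1973 identifiers. Sequences came from RefSeq tables on GRCm38.p6 (4 of 4 hairpins, all with the GENCODE span, and 7 arm entries) and were aligned with biopython 1.88 and folded with RNAfold 2.7.2. Tests used scipy 1.17.1, edgeR 4.0.16 and DESeq2 1.42.0. The main test was checked on simulated counts that held counting noise only, so the check does not cover spread between pools. Fisher's exact test was adjusted over the 380 genes with at least 10 counts in both libraries. Intervals are 95% Wilson, or exact for ratios, and cover counting error only.

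The members and lists were chosen with earlier results of these data known. Genes named beside them are the next 2 above and below in mean CPM, the 3 closest in log2 ratio, and up to 3 leading genes of each list. The remaining list genes were named after their values were seen. Alternatives were other scalings, the either-strand column, no count minimum, another test, hairpin length and single libraries. No paired analysis was possible because the libraries form 1 group.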

Additional observations from a re-analysis of the deposited data

Results flagged for a closer look

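Reads outside the gene counts were above what a count of 0 allows. Those aligned to several places made up 33.41% of all reads in replicate 1 and 33.39% in replicate 2. The sequence of miR-7a-5p is identical at Mir7-1 and Mir7-2, and its part in these reads was not tested. With 2 libraries in 1 group, neither library was tested as lying apart.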

How the results depend on the processing

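Per 1000000 of all reads, the mean levels fell to 199.1 for Mir7-1, 91.5 for Mir7-2, 169.1 for Mir7b, 253.3 for Mir375 and 459.7 for the summed Mir7 genes, because that total also counts the reads of no gene. With the edgeR exact test, 4 genes were called in place of 206, and the log2 ratios of Mir7-1 (-0.32), Mir7b (-0.99) and Mir375 (0.77) were no longer called. Under the 5 other settings of the ratio between libraries, Mir7b ranged from -1.03 to -0.98, Mir375 from 0.73 to 0.78 and Mir7-1 from -0.36 to -0.32, all called, while Mir7-2 ranged from 0.11 to 0.15 and was never called. Leaving out 1 replicate turned the direction of 3 pair ratios: the log2 ratio of Mir375 over Mir7-1 was -0.24 and 0.86, of Mir375 over Mir7b -0.26 and 1.51, and of Mir7-1 over Mir7b -0.020 and 0.65, without replicate 2 and without replicate 1. Leaving out 1 of 2 libraries moves a mean by less than their SD by construction, and the pair ratios cannot change with the either-strand column, so neither bears on stability. Mir7-2, on 945 and 638 counts, was not called: its adjusted p was 0.064 by Fisher's exact test, which takes in counting error only. The part of depth in this was not tested. The exact test of edgeR takes its dispersion from the same 2 libraries it compares.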
